A study of Mus musculus with 2 samples.

Results

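Serpins are a family of proteins most of which inhibit proteases. They were taken as the non-control probes of the arrays whose name in the files begins with Serpin, a clade letter from a to i and a digit. The 71 probes reported here stood for 53 of 27670 genes after names were updated. Clade a had 20 genes, clade b had 24, clades f and i had 2 each, and clades c, d, e, g and h had 1 each. Both groups were GIF-5 cells, a mouse gastric epithelial line of genotype Runx3-/- p53-/-, grown in DMEM with bovine serum. CD133-positive cells and CD133-negative cells were separated by flow cytometry with an antibody against CD133, a membrane glycoprotein encoded by Prom1 that often serves to mark stem-like cells. The 2 Agilent arrays each compared the fractions directly, with RNA of CD133-positive cells labelled in Cy3 and RNA of CD133-negative cells in Cy5. The deletions were carried by both groups, and both came from 1 line, so the comparison says nothing about cells with Runx3 or p53.

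An inhibitory serpin presents a flexible reactive loop to its target protease, and when the protease cuts the loop the serpin changes shape and traps the enzyme in a covalent complex. Clade a serpins are mostly secreted and many are known as products of the liver, whereas clade b serpins mostly act inside the cell. Other clades include regulators of clot formation and lysis, and a few serpins, such as the collagen chaperone Serpinh1, inhibit no protease.

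The clade a genes that passed the test were 3 near-identical copies of Serpina1, related to human alpha-1-antitrypsin, the inhibitor of neutrophil elastase. Their promoter windows are shown because these genes moved together, and those of Serpini1 and Serpinf2 because they were the other serpins that passed. Each window runs from 250 bases before to 50 bases after the annotated start of the gene (RefSeq, GRCm38.p6), which 21 of the 24 tested serpin genes have. Capitals mark the letters TGTGGT, a core motif of RUNX factors, and GTTAAT, one side of the palindromic site of HNF1 factors, searched on both strands.
Serpina1b, chr12:103738140-103738439, minus strand: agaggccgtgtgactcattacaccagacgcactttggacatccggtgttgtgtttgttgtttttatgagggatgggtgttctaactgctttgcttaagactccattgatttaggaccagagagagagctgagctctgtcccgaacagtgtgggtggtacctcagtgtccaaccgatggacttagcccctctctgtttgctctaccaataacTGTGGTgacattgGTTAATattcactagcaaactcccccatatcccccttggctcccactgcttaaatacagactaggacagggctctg
Serpina1d, chr12:103773584-103773883, minus strand: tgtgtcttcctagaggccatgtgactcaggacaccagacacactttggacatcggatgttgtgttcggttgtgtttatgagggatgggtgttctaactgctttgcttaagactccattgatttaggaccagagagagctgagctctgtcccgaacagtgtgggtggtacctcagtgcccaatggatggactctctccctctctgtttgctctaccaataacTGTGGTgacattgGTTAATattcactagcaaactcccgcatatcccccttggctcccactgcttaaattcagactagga
Serpina1e, chr12:103956848-103957147, minus strand: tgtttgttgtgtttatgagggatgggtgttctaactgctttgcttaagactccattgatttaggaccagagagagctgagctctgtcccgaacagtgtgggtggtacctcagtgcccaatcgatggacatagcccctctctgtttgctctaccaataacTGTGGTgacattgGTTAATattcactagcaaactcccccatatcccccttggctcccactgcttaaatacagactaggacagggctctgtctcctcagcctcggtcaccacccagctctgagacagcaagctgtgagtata
Serpini1, chr3:75557243-75557542, plus strand: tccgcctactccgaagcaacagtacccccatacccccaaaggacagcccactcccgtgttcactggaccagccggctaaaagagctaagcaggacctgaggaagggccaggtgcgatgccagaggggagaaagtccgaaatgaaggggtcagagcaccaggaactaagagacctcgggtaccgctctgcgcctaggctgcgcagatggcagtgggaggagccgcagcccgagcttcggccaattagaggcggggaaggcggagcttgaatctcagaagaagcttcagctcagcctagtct
Serpinf2, chr11:75439452-75439751, minus strand: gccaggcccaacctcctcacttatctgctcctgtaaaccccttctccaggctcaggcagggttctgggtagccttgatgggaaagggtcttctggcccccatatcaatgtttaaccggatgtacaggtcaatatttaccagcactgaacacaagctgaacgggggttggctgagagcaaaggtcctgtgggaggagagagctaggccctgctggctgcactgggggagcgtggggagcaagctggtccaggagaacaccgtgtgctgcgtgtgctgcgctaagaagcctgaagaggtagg

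Each of the Serpina1 windows held both motifs, at the same distance from each other. The first base of TGTGGT lay at -39 in Serpina1b, -29 in Serpina1d and -91 in Serpina1e relative to the start, and that of GTTAAT at -26, -16 and -78. These are not independent matches, since the windows are copies of each other: Serpina1d and Serpina1e were 95% identical over 238 bases, Serpina1b and Serpina1e 78.6% over 248, and Serpina1b and Serpina1d 64.8% over 290, at the best ungapped offset. The windows of Serpini1 and Serpinf2 held neither motif. Over the 21 tested serpins with a window, 7 had TGTGGT and 5 had GTTAAT in any of their windows. The Serpina1 copies are in both counts. The shares among 32851 mouse promoter windows of the same length were 16.8% and 7.1%. Shares are per window and serpin counts per gene, and some genes have several windows, so they are not fully alike. The motifs of AP-1 factors (TGANTCA, in 4 of the 21 and in 7.81% of all windows), the TATA box (TATAAA, 4 and 13.6%), the CCAAT box (CCAAT, 8 and 37.4%) and heat shock elements (GAANNTTC, 2 and 7.86%) were also searched. At the Serpina1 sites a CCAAT on the opposite strand shares a base with GTTAAT. A match is a description of the letters and not of binding, which was not measured.

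The sorted marker checked the labels. Prom1 had normalised log2 intensities of 9.45 and 9.28 in CD133-positive cells on arrays 1 and 2, against 5.63 and 5.55 in CD133-negative cells, where its probe was dim, that is, not well above background. Its log2 ratio was therefore at least 3.58 (limma adjusted p = 0.00966). Here and below, such a bound sets the bright fraction against the lowest signal well above background. The dim probe's own signal is used where that is higher, and if so on both arrays the bound is the measured ratio. Bounds are means over the arrays, so by themselves they show no difference where a gene did not pass. Runx3 and Trp53 had log2 ratios of 0.05 and -0.05 and were above background in both fractions, and where their probes lie relative to the deletions is not known. The epithelial markers Krt8, Krt18, Krt19 and Cdh1 were well above background in both fractions on both arrays. Epcam and Cldn4 were not tested, being above background on 1 array in CD133-negative cells and on none in CD133-positive cells. Over 15267 tested genes the log2 ratios of the arrays had a Pearson r of 0.771, a value over genes and not over replicates. The labels call the arrays biological replicates without saying that they came from separate cultures or sorts. The p-values thus rest on the spread between these samples alone, moderated by limma towards the variance of all tested genes. Without that moderation 0 genes passed. Neither array had the dyes the other way round, so dye and fraction cannot be told apart.

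Of the 53 serpin genes, 24 could be tested. A gene was tested if a probe was well above background in the same fraction on both arrays, which held for 45.3% of serpin genes and for 55.2% of all genes on the array. Of the 24, 16 were above background in both fractions on both arrays, 7 passed through CD133-negative cells alone and 1, Serpinh1, through CD133-positive cells alone. A gene that passed through 1 fraction alone tends to be higher there, so counts over the tested genes are descriptions.

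Of the 29 genes not tested, 24 were dark, with all their probes below the well-above-background flag in both fractions of both arrays. Among them were 13 genes of clade a. These were Serpina11, Serpina12, Serpina1f, Serpina3a, Serpina3b, Serpina3c, Serpina3f, Serpina3g, Serpina3k, Serpina3n, Serpina4-ps1, the protein C inhibitor Serpina5 and the corticosteroid carrier Serpina6. A further 9 were of clade b, namely Serpinb10, Serpinb11, Serpinb13, Serpinb3a, Serpinb3b, Serpinb3d, Serpinb7, Serpinb9b and Serpinb9c. The protease nexin Serpine2 and Serpini2 completed them. In the other 5, a probe was above background on 1 array. Serpina10, Serpinb12 and the urokinase inhibitor Serpinb2 were so in CD133-negative cells, and the thrombin inhibitor Serpind1 and the C1 inhibitor Serping1 in each fraction. The Serpinb2 probe above background had log2 intensities of 6.34 and 6.04 in CD133-positive cells, against 7.87 and 6.14 in CD133-negative cells, so a difference was visible on array 1 alone. The plot of genes by clade shows that most of clade a and a large part of clade b lay below detection.

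**Figure D1:**
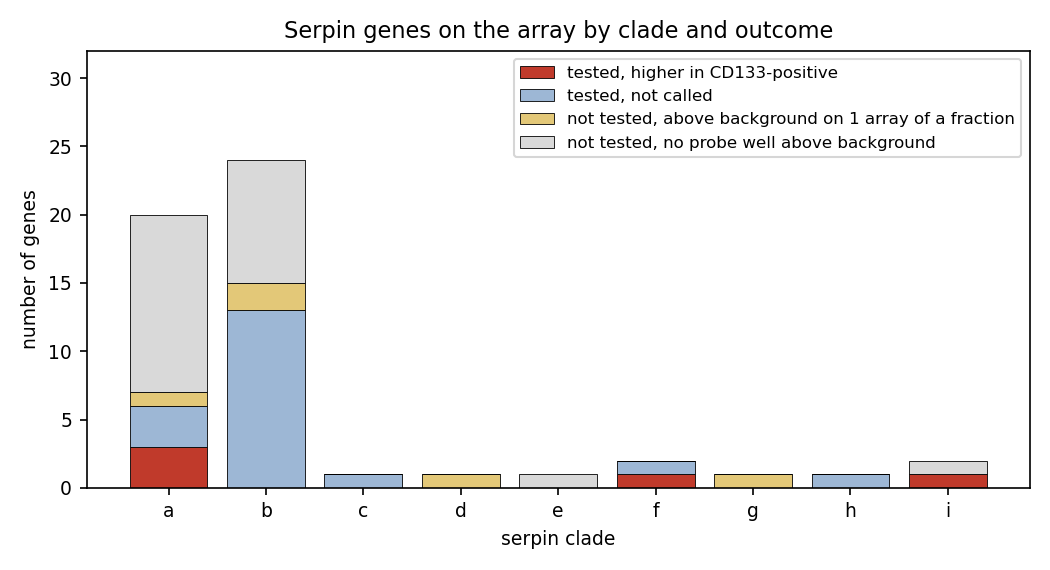
Number of serpin genes on the array (vertical axis) in each clade (horizontal axis), split into tested genes called higher in CD133-positive cells, tested genes not called, and genes not tested. Clade a had 6 tested genes of 20, 3 of them called, and clade b had 13 of 24, none of them called.

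In the fit over all genes, 5 of the 24 tested serpins were called (limma adjusted p under 0.05 over all 15267 genes), or 20.8%, against 1.64% of all tested genes. All 5 were higher in CD133-positive cells, as were 1.38% of all tested genes, and none was lower, as were 0.262%. The 5 were Serpini1, Serpina1b, Serpina1d, Serpina1e and Serpinf2, and they may not be 5 separate results, because the Serpina1 copies are so alike. At an unadjusted limma p under 0.05 there were 15 serpins, 62.5% of those tested, against 27.9% of all tested genes. By size alone, 7 serpins differed at least 2-fold on both arrays in 1 direction, or 29.2%, against 4.62% of all tested genes. Of these, 6 were at least 2-fold higher on both arrays (2.50% of all tested genes were) and 1 was at least 2-fold lower (2.12%). Serpinh1 was the sixth higher gene, and the lower one was Serpinb6b. Over both arrays 6 serpins were above 0 (32.6% of all tested genes), 11 were below 0 (39.7%) and 7 had opposite signs. The levels of the fractions did not overlap in 6 higher serpins (27.6% of all tested genes) and in 10 lower ones (34.6%), so with 2 arrays a lack of overlap is common. The median of the tested serpins was -0.00, with 0.03 on array 1 and -0.31 on array 2, and that of all tested genes was -0.03, with -0.02 and -0.04.

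How many serpins were called lower depended on the scaling. Loess gave 5 higher and 0 lower. Median centring of each array over all probes in its place gave 6 and 8, with the median of all tested genes at -0.75, and median centring over the tested probes gave 9 and 4. Over all genes, 84.1% of calls were higher with loess. It was 71.5% with no background correction, 71.8% with a normexp offset of 16, 61.5% after scaling between arrays, 4.76% with median centring over all probes and 48.9% with centring over the tested probes. Set against the median of all genes, the 5 called serpins were higher under every alternative run.

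**Figure D2:**
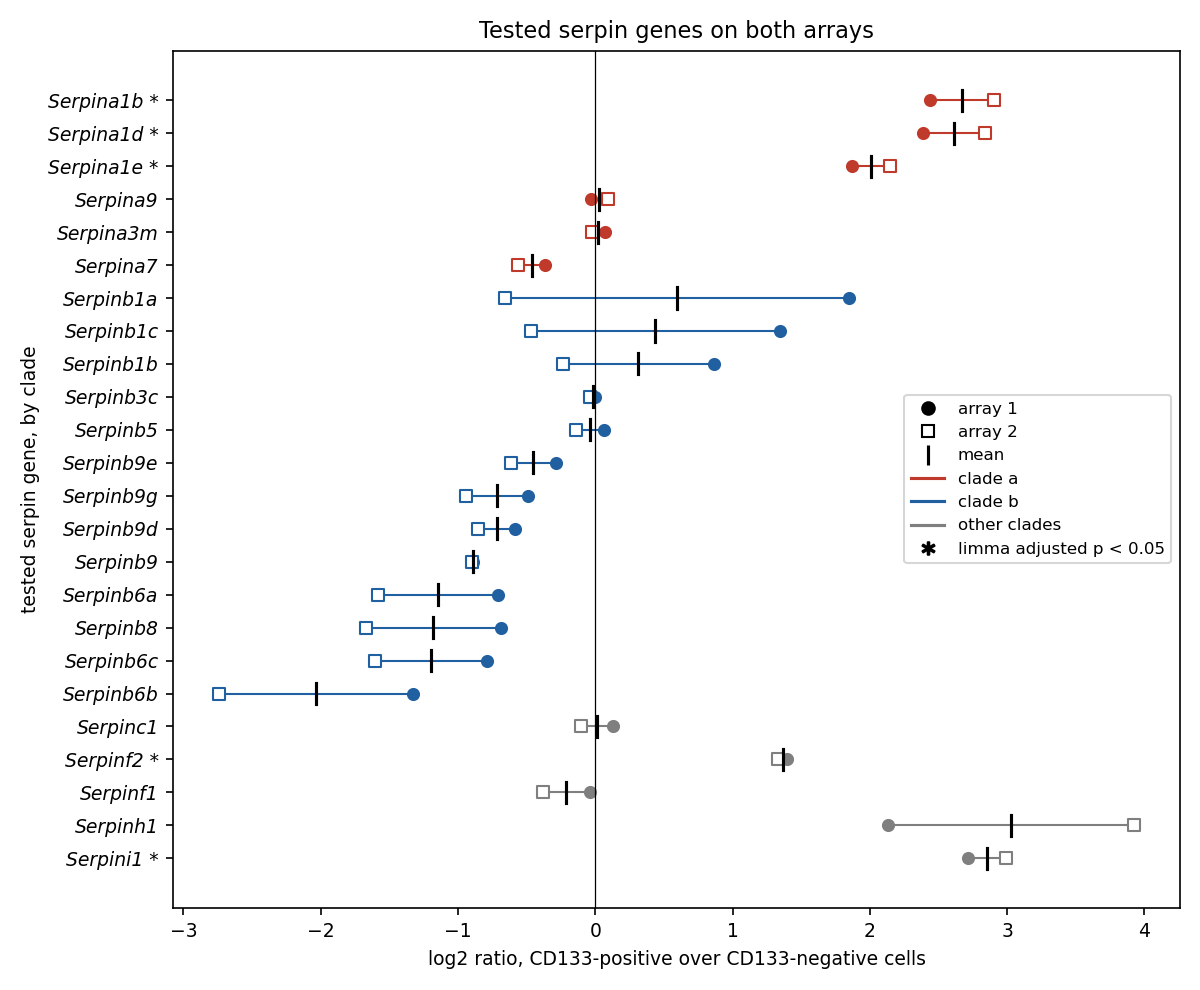
Log2 ratio of CD133-positive over CD133-negative cells (horizontal axis) of the 24 tested serpin genes, ordered by clade (vertical axis). Filled circles are array 1, open squares array 2, bars their mean, and asterisks mark genes with a limma adjusted p under 0.05. Clade b holds no gene above 0 on both arrays, and the Serpinb1 genes have opposite signs on the arrays.

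The Serpina1 copies of clade a gave the most called genes. Serpina1b had log2 intensities of 10.70 and 11.07 in CD133-positive cells on arrays 1 and 2, against 8.26 and 8.17 in CD133-negative cells. Its log2 ratio was 2.67 ± 0.18 (moderated SE of limma, n = 2, limma adjusted p = 0.0238), a 6.36-fold difference. Each ± in the text is such an SE. It draws on the variance of all tested genes and is not the spread of the 2 arrays alone. Serpina1d had 14.57 and 15.05 in CD133-positive cells, against 12.18 and 12.22 in CD133-negative cells. For both genes the fractions did not overlap, and the arrays lay close together. The ratio of Serpina1d was 2.61 ± 0.18 (limma adjusted p = 0.0240). Serpina1e had 10.12 and 10.49 in CD133-positive cells, against 8.25 and 8.34 in CD133-negative cells, a ratio of 2.01 ± 0.15 (limma adjusted p = 0.0288). The fractions were again apart on each array. These genes are tandem copies with near-identical transcripts, and the files hold no probe sequences, so how far 1 transcript fed several probes was not tested. Their calls were lost without a filter on brightness and without moderation of the variance.

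The tested markers of hepatocytes, the best known source of Serpina1, were above 0 on both arrays, most by less than the Serpina1 copies. Of 8 markers, 5 were tested and 2 were higher in CD133-positive cells. They were the serum carriers Alb (2.75 ± 0.14, limma adjusted p = 0.0164) and Ttr (1.81 ± 0.17, limma adjusted p = 0.0401). The summed level of the tested markers was 11.3 and 10.5 on the log2 scale in CD133-positive cells, against 9.92 and 9.05 in CD133-negative cells. Hp was at 0.61, Fgb at 0.48 and Tat at 0.19, all without passing. Cyp2e1 had no probe well above background, and Apoa2 and Ahsg were not tested. The part of these markers in the Serpina1 result was not tested.

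The remaining tested genes of clade a showed no difference that passed. Serpina9, known in humans from germinal centre B cells, had log2 ratios of -0.03 and 0.09 on arrays 1 and 2. Serpina3m, one of the mouse copies related to antichymotrypsin, had 0.07 and -0.02. Both were near 0 on both arrays. Serpina3m had log2 intensities of only 6.39 and 6.33 in CD133-positive cells, where the lowest signal well above background was 6.06 and 6.07. At such low signal a ratio near 0 says little. The thyroxine carrier Serpina7 had ratios of -0.37 and -0.56, and its probe was dim in CD133-positive cells. This gave a bound of 1.26-fold lower mean signal in CD133-positive cells, without passing (limma adjusted p = 0.150). Over the 6 tested genes of clade a the median was 1.02, with 0.97 on array 1 and 1.12 on array 2. No gene lay near this value. The 3 Serpina1 copies were at 2.01 or more, and the 3 genes not called were at 0.03 or less.

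Neuroserpin, encoded by Serpini1, is an inhibitor of tissue plasminogen activator known from neurons. Its log2 intensities were 9.37 and 9.81 in CD133-positive cells, against 6.66 and 6.82 in CD133-negative cells. The ratio was 2.86 ± 0.15 (limma adjusted p = 0.0168), a 7.24-fold difference, and the fractions did not overlap. Serpinf2 encodes alpha-2-antiplasmin, which inhibits plasmin. It had 8.73 and 8.12 in CD133-positive cells, against 7.34 and 6.79 in CD133-negative cells, higher on each array by nearly the same amount. Its ratio was 1.36 ± 0.14 (limma adjusted p = 0.0462), the weakest of the calls. Of 13 alternatives, 9 kept it, and it was lost with the dimmest probe of each gene (limma adjusted p = 0.0538) and with the 4 channels as separate samples (0.0627) beside the settings that ended the Serpina1 calls.

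The proteases and receptors around Serpini1 and Serpinf2 showed no call. Of 11 genes of plasminogen activation and clearance, 9 were tested, with a median of -0.50, and 7 were below 0 on both arrays. The tissue activator Plat, a target of Serpini1, was at -0.83 ± 0.15 (limma adjusted p = 0.0822). The urokinase receptor Plaur was at -0.58, the plasminogen receptor subunit Anxa2 at -0.65 and the lipoprotein receptor Lrp8 at -0.56. The urokinase gene Plau was not well above background in CD133-positive cells. Its mean signal was 1.31-fold lower there without passing (limma adjusted p = 0.195). Plg, the gene of plasminogen itself, had no probe well above background on either array.

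Serpinh1, also called Hsp47, holds procollagen in the endoplasmic reticulum and inhibits no protease. Its log2 intensities were 8.01 and 9.85 in CD133-positive cells, against 5.88 and 5.93 in CD133-negative cells. The lower pair was close to the lowest signal well above background, 5.78 and 5.79, and was above it by the flag on 1 array. The ratio, 2.13 on array 1 and 3.92 on array 2, had the largest mean of the serpins, 3.03 ± 0.48. It did not pass (limma adjusted p = 0.0745). Among all tested genes, 118 of 15267, or 0.773%, differed by at least as much between the arrays. In the authors' deposited log ratios the mean was 5.85 and passed (limma adjusted p = 0.0156), so the size depended on the processing. It was called higher in 5 of 12 alternatives, also with an offset of 16 (3.88, limma adjusted p = 0.0332), both median centrings and an intensity trend in the variance (limma adjusted p between 0.00864 and 0.0376). Of 13 collagen-folding genes all were tested and none was called, with a median of 0.00. The prolyl isomerase Fkbp10 was at -2.22 and the lysyl hydroxylase Plod2 at 1.72, and the prolyl hydroxylases P4ha2 and P4ha1 were at 1.57 and 0.65.

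**Figure D3:**
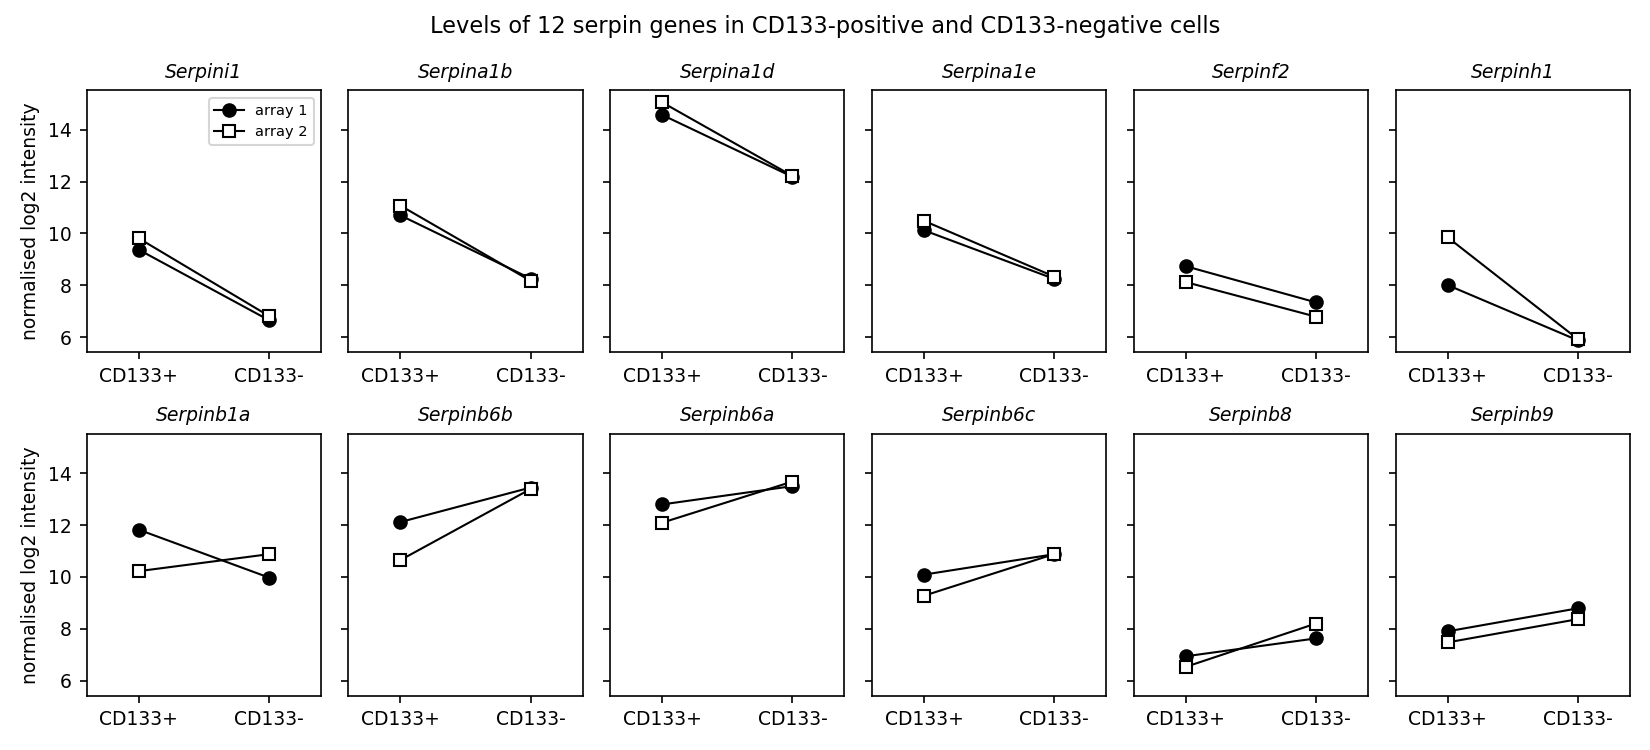
Normalised log2 intensity (vertical axis) of 12 serpin genes in CD133-positive (CD133+) and CD133-negative (CD133-) cells, with filled circles for array 1, open squares for array 2 and lines joining the fractions of an array. The genes of the upper row are higher in CD133-positive cells on both arrays. In the lower row Serpinb1a changes direction between arrays and the other genes are lower in CD133-positive cells.

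Clade b, the intracellular serpins, had 13 tested genes, and none was called in either direction. Of these, 9 were below 0 on both arrays (39.7% of all tested genes were) and 4 had opposite signs. The median was -0.71, with -0.49 on array 1 and -0.86 on array 2, and single genes lay between -2.04 and 0.60. Over the 11 tested genes of all other clades, 3 of them the Serpina1 copies, the median was 1.36. At an unadjusted limma p under 0.05 there were 8 clade b genes of 13, against 27.9% of all tested genes. Serpinb9d, Serpinb9e, Serpinb9g, Serpinb3c and Serpinb5 were tested through CD133-negative cells alone. Such genes tend to be higher there, so these counts are descriptions. The filter on both fractions moved the clade b median to -1.02, and the deposited log ratios to -1.20. Other settings brought it nearer 0, to -0.29 with centring over tested probes, -0.34 with the dimmest probe and -0.090 without a brightness filter.

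The Serpinb6 genes, related to the human cathepsin G inhibitor SERPINB6, were among the lowest in the fit over all genes. Serpinb6b had log2 intensities of 12.12 and 10.65 in CD133-positive cells, against 13.45 and 13.39 in CD133-negative cells. The ratio was -2.04 ± 0.38 and did not pass (limma adjusted p = 0.0855). CD133-negative cells had nearly the same signal on both arrays, and it was the CD133-positive signal that differed between them. Serpinb6a had 12.80 and 12.09 in CD133-positive cells, against 13.50 and 13.68 in CD133-negative cells, a ratio of -1.15 ± 0.26 (limma adjusted p = 0.104). A further probe of Serpinb6a, not well above background in CD133-positive cells, was at -0.25. Serpinb6c had a ratio of -1.20 ± 0.25 (limma adjusted p = 0.0932), with -0.79 on array 1 and -1.61 on array 2. In all 3 genes the fractions did not overlap, as in 34.6% of all tested genes in that direction, and the difference was larger on array 2. They are close copies on chromosome 13, and cross-hybridisation between them was not tested.

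Serpinb9, the inhibitor of granzyme B, and its mouse copies had smaller differences than the Serpinb6 genes in the fit over all genes. That order depended on the processing. In the authors' deposited log ratios Serpinb9d was at -3.31, Serpinb9g at -2.74, Serpinb9e at -1.90 and Serpinb9 at -1.17, all without passing. There Serpinb6b was at -2.06, Serpinb6c at -1.23 and Serpinb6a at -1.20. With an offset of 16, Serpinb9d (-1.21) and Serpinb9g (-1.17) were close to Serpinb6c (-1.21) and Serpinb6a (-1.15). Serpinb9 had log2 intensities of 7.90 and 7.48 in CD133-positive cells, against 8.79 and 8.37 in CD133-negative cells. The ratio was nearly the same on both arrays, -0.89 and -0.90, with a mean of -0.89 ± 0.14, and did not pass (limma adjusted p = 0.0719). A further probe was at -0.63. Serpinb9d was at -0.72 ± 0.15, Serpinb9g at -0.71 ± 0.18 and Serpinb9e at -0.45 ± 0.16, with limma adjusted p between 0.0948 and 0.177. Serpinb9d and Serpinb9g were above background in CD133-positive cells on 1 array. A further probe of Serpinb9g, not well above background in CD133-positive cells, was at -0.34. Serpinb9e was not well above background in CD133-positive cells, and its mean signal was 1.37-fold lower there. All 4 were below 0 on both arrays.

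Of the granule serine proteases, Elane, Ctsg, Prtn3, Gzma, Gzmb, Gzmk, Cma1 and Tpsb2 were not tested. Mcpt4 was the only tested member of 9. Its probe was dim in CD133-positive cells, which gave a bound of 1.10-fold lower on the mean, without passing (limma adjusted p = 0.492). Among blood cell markers Ptprc, Itgam and Tyrobp had no probe well above background, and of 3 tested none was called. Cysteine proteases that some serpins inhibit had 4 tested members and no call, with the cathepsin Ctsh at 2.26 ± 0.31 (limma adjusted p = 0.0667), Ctsl at -0.26 and the caspase Casp8 at -0.32.

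The 3 tested Serpinb1 genes, related to the human leukocyte elastase inhibitor SERPINB1, went opposite ways on the 2 arrays. Serpinb1a had log2 intensities of 11.82 and 10.22 in CD133-positive cells, against 9.98 and 10.88 in CD133-negative cells. It was higher in CD133-positive cells on array 1 by 1.85 and lower on array 2 (-0.65), so the mean of 0.60 ± 0.65 says nothing of direction (limma adjusted p = 0.621). Only 23 of 15267 genes, or 0.151%, differed by at least as much between the arrays. Serpinb1c had ratios of 1.35 and -0.47, and Serpinb1b of 0.86 and -0.24. All 3 shared the pattern, and whether their probes measured the same transcript was not tested.

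**Figure D4:**
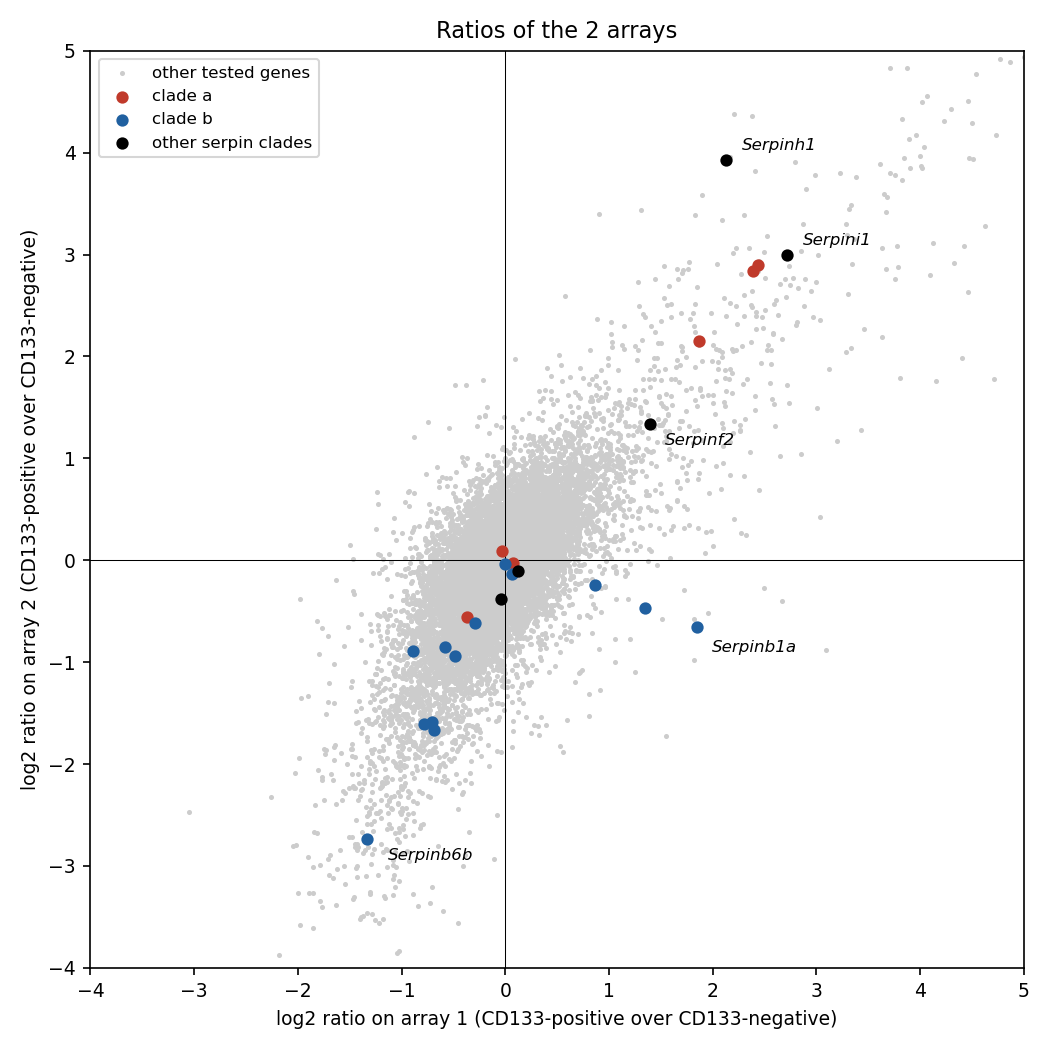
Log2 ratio of CD133-positive over CD133-negative cells on array 1 (horizontal axis) and array 2 (vertical axis) for all tested genes, with serpins coloured by clade. Beyond the axes lie 17 genes, none a serpin. Serpinb1a, with 1.85 and -0.65, lies below the main cloud with its 2 copies, and Serpini1 and the clade a group lie along it.

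The other clade b genes were scattered. Serpinb8, known in humans as a furin inhibitor, had a ratio of -1.18 ± 0.28 (limma adjusted p = 0.110), and a further probe was at -0.37. Serpinb5, or maspin, known in mammary epithelium, had 0.06 and -0.14. Serpinb3c, related to the human squamous cell carcinoma antigens, had -0.00 and -0.04. Both were near 0 in log2 ratio and were above background in CD133-positive cells on 1 array. By location, the 10 tested clade b genes of chromosome 13 had a median of -0.72. The 3 of chromosome 1, which are Serpinb3c, Serpinb5 and Serpinb8, had -0.04, the value of Serpinb5. Of these, Serpinb3c and Serpinb5 had low signal, and Serpinb8 was at -1.18. Whether location played a part was not tested.

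Of the serpins of clotting and growth control, Serpinc1, which encodes antithrombin, had ratios of 0.13 and -0.10. Its signal was low, with log2 intensities of 6.59 and 6.49 in CD133-positive cells. Serpinf1, or PEDF, known to restrain blood vessel growth, was at -0.04 and -0.38. It was not well above background in CD133-positive cells, and its mean signal was 1.16-fold lower there (limma adjusted p = 0.470). Neither passed. Of 14 genes of coagulation, contact and complement, 10 were tested, and the thrombin receptor F2r was lower in CD133-positive cells, with a ratio of -2.05 ± 0.20 (limma adjusted p = 0.0460). The lectin pathway protease Masp1 was at -1.54, C1ra at -1.15, C1s at -1.12, the prothrombin gene F2 at 0.95 and tissue factor F3 at -0.77, all without passing. Among 13 membrane and kallikrein proteases, 11 were tested and Prss8, which encodes prostasin, was higher by 2.36 ± 0.15 (limma adjusted p = 0.0230). Tmprss2 at 1.55, Klk6 at 1.39, Htra1 at -1.34 and Prss23 at -0.66 did not pass.

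The size of the serpin differences was not the same on both arrays. All 11 serpins below 0 on both arrays had the larger difference on array 2, as did 69.0% of all tested genes below 0 on both. Of the 6 serpins above 0 on both arrays, 5 had the larger difference on array 2, as did 55.5% of such genes. Log2 ratios spread more widely on array 2 in general, with an SD over genes of 0.60 on array 1 and 0.76 on array 2.

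Markers of other cells were set beside the called serpins. Of 5 endothelial markers 2 were tested and both were higher in CD133-positive cells. Vwf was higher by 3.75 ± 0.15 (limma adjusted p = 0.0119). Cdh5, dim in CD133-negative cells, was at least 5.81-fold higher (limma adjusted p = 0.0431). Their summed level was 10.7 and 11.3 on the log2 scale in CD133-positive cells, against 7.43 and 7.58 in CD133-negative cells, and Pecam1, Kdr and Tek had no probe well above background. Of 7 gastric markers on the array, 6 were tested, and Gkn2 (5.60 ± 0.15, limma adjusted p = 0.00966) and Tff1 (4.40 ± 0.15, limma adjusted p = 0.00966) were higher. Among epithelial markers Ocln was higher by 1.81 ± 0.16, while Krt8 (-0.78) and Krt19 (-0.79) did not pass. Of 8 fibroblast and muscle markers 4 were tested and none was called, with Col1a1 at -1.25 (limma adjusted p = 0.0673), while Pdgfra, Pdgfrb, Thy1 and Dcn had no probe well above background. Their summed level was 13.1 and 13.2 on the log2 scale in CD133-positive cells, against 12.9 and 13.1 in CD133-negative cells. The part of these markers in the serpin results was not tested.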

How the data were processed

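Gene expression was measured on 2 two-colour Agilent arrays on 1 slide with 1 scan time, per the file headers, so no scan batch could be compared. The deposited intensity of spots and local background was read by Agilent Feature Extraction 9.5.3.1 and is not normalised, per the file headers. The authors also deposited a log10 ratio (red over green), whose median is 0 and which equals the value table of the series at each of 45018 spots. Spots well above background numbered 23694 and 23498 in Cy3 and 25213 and 24648 in Cy5, and 0 were saturated. Precision is limited by having 2 arrays.

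Background was corrected by normexp (offset 50), and loess was run within arrays with control spots at weight 0. Log2 ratios (CD133-positive over CD133-negative) were fitted with limma 3.58.1 in R 4.3.3, two-sided, with Benjamini-Hochberg adjustment over 15267 genes and a threshold of 0.05. The fit had 1 residual degree of freedom and 2.86 prior ones. A probe was tested if well above background in 1 fraction on both arrays and free of outlier flags, and a gene was its tested probe of highest mean log2 intensity. Levels are per channel after loess and Aquantile. Names came from a RefSeq table by accession for 22951 of 41174 probes and by symbol for 9768, and from the files for 8455.

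The serpin genes and the lists were chosen with earlier results of these data known. A result for 1 gene that the naming rule finds is not reported here. Every other tested serpin was named, with Prom1 and every called list member. Further list members were mostly those with the largest ratios in 1 direction on both arrays, and not all such members were named. The alternatives changed background correction, scaling, filter, probe and variance model, or left out an array.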

Additional observations from a re-analysis of the deposited data

How the results depend on the processing

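Over 13 alternatives with a test, the ratios of single serpins kept direction and side of the threshold in 259 of 304 cases, passed only there in 20, failed only there in 12 and changed sign in 13. Causes were not tested. Genes called higher and lower, 211 and 40, were 404 and 159 with an offset of 16, 483 and 9665 with median centring over all probes, 1992 and 2084 with centring over tested probes, 320 and 200 after scaling between arrays, 392 and 94 with the value table, 494 and 326 with an intensity trend in the variance, 29 and 0 without a brightness filter, and 0 and 0 without moderation (limma), where 799 and 708 had an unadjusted p under 0.05. Genes called lower were 109 without background correction, 73 with the filter on both fractions and 12 with the dimmest probe. The fractions of an array were paired by the array itself, and with the 4 channels as separate samples and no replicate block, 542 genes were higher and 520 lower. Serpins called lower were 8 with centring over all probes, 4 over tested probes and 2 with the trend. Serpins called higher were 9 with centring over tested probes, and 0 without a filter and 0 without moderation (limma). With centring over tested probes the serpin median was 0.51, against -0.00 with loess. The clade a median, 1.02, was 0.58 with centring over all probes, 1.24 over tested probes, 1.21 with the value table, 2.01 with the filter on both fractions and 0.024 without a filter. The clade b median, -0.71, was -1.01 with an offset of 16, -0.29 with centring over tested probes, -1.20 with the value table, -1.02 with the filter on both fractions, -0.090 without a filter and -0.34 with the dimmest probe. Signs changed for Serpina3m (-0.012 without background correction, -0.016 with centring over all probes, -0.10 with the value table). With centring over all probes they changed for Serpina9 (-0.43), Serpinb1a (-0.33), Serpinb1c (-0.039), Serpinb5 (0.038) and Serpinc1 (-0.14), and over tested probes for Serpina7 (0.30), Serpinb3c (0.63), Serpinb5 (0.70), Serpinb9e (0.11) and Serpinf1 (0.49). Leaving out an array left 1 array and no test, with medians from -0.31 to 0.032 for serpins, 0.97 to 1.12 for clade a and -0.86 to -0.49 for clade b. Signal over background limits the 29 serpin genes not tested.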
